A study of Mus musculus with 6 samples.

Results

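The WAVE regulatory complex was followed here through the 9 mouse genes that encode its neuronal and widely expressed subunits, Wasf1, Wasf2, Wasf3, Cyfip1, Cyfip2, Nckap1, Abi1, Abi2 and Brk1. They were taken by symbol from a table of 52390 genes counted by RNA-seq in brain tissue, and all 9 were found and passed the filter on low counts. The complex was chosen by the P of Wasf2 in the comparison reported here, so the difference in Wasf2 is described below without a test, and the remaining 8 subunits were tested. The study compared 3 AP1AR-DT OE mice with 3 control mice. AP1AR-DT OE mice had received a recombinant adeno-associated virus (rAAV) carrying AP1AR-DT, a human long non-coding RNA that the labels name AC109347.1, and control mice had received the empty vector. The human synapsin I promoter, active in neurons, drove AP1AR-DT, and a CMV promoter drove the EGFP reporter of the same vector, and RNA was taken from whole tissue, not from sorted infected cells. All mice were male, of the C57BL/6 strain, and were injected in the medial prefrontal cortex at 8 weeks of age, with no other allele or agent named. The labels give the tissue as brain, while the study's text names cortical tissue in one place and the medial prefrontal cortex in another. The table of mouse genes holds no row for AP1AR-DT, and the labels could not be checked against its level.

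The complex holds 1 subunit each of the WAVE, CYFIP, NCKAP1, ABI and BRK1 kind, and for several of these kinds the cell can choose between paralogs. In its resting state CYFIP keeps the activating tail of WAVE hidden. When Rac binds CYFIP the tail is released and turns on the Arp2/3 complex, which starts new actin branches on the side of existing filaments. In neurons such branched actin builds growth cone margins and dendritic spines, the small protrusions that carry most excitatory synapses.

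The sequences before the gene starts of the member with the lowest and of the member with the highest Log2FC are printed here for reference. They are from RefSeq on GRCm38.p6, plus strand, 5′ to 3′. The Wasf2 stretch lies at chr4:133130383-133130504 and ends at the base before the GENCODE gene, and its capitals mark a GC box. The Brk1 stretch lies at chr6:113604522-113604771, directly before the gene, and its capitals mark matches to the core of the NRF1 motif.
Wasf2: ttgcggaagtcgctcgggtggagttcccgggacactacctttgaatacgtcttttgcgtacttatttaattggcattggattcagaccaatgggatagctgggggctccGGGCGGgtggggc
Brk1: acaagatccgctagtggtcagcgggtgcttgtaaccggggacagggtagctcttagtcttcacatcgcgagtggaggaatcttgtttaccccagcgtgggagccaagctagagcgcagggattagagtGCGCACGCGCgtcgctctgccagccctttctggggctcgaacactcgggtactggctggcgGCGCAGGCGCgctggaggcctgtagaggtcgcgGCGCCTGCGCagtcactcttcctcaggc
The NRF1 core was searched as GCGCA and GCGC with any base between them, and the GC box as GGGCGG, both on either strand, and the motifs do not overlap in these stretches. NRF1 is a transcription factor that the study examined. Brk1 held 3 matches, 122, 61 and 28 bases before the RefSeq start, and no other member with a promoter entry held one, where 3.74% of all 32851 promoters of the same length did. The GC box was present in 32.7% of all promoters, and among the members in Wasf1 and Wasf2. Promoter entries were found for 6 members, namely Wasf1, Wasf2, Wasf3, Cyfip2, Abi1 and Brk1. A match is only a description of the letters. Cyfip1, Nckap1 and Abi2 were not matched.

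Counts were scaled to a common library total with TMM factors (normalized CPM). Differences are given as Log2FC, the log2 fold change of AP1AR-DT OE mice against control mice, with its standard error (SE), from edgeR's quasi-likelihood test across the 21844 genes with enough counts. Adjusted P values are from the same test, over all of these genes. The libraries held between 42061721 and 54668294 counts. Genes called by the thresholds of the study, P under 0.05 and |Log2FC| above 0.32, were 12.2% of the genes tested, and 0.0275% passed an adjusted P under 0.05. Marker genes differed between mice of the same group. Summed markers of excitatory neurons of the cortex ranged from 1098 to 1937 normalized CPM in control mice and from 1631 to 2827 in AP1AR-DT OE mice. Slc17a7, the vesicular glutamate transporter of cortical excitatory neurons, was at 28.2, 3.86 and 233 normalized CPM in control 1, 2 and 3 and at 231, 463 and 87.2 in AP1AR-DT OE mice A, B and C. Its low level in control 1 and control 2 goes against a label of cortex alone. Choroid plexus markers reached 3903 in control 3 and lay between 45.6 and 62.7 in the other mice, and hypothalamic markers reached 482 in control 2 and 67.1 in control 3, against 3.71 to 8.27 in the other mice. Oligodendrocyte markers reached 10255 in control 3 and lay between 4745 and 6089 in the other mice. Markers called lower in AP1AR-DT OE mice were 4 of 6 for choroid plexus, 4 of 6 for hypothalamus, 2 of 6 for oligodendrocytes and 1 of 6 for astrocytes. Of all genes, 7.15% were called lower. None of these markers was called higher. Values without control 2 or control 3 are therefore given below where a result rests on them.

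Wasf2 encodes WAVE2, the WAVE protein found in most cell types, and was the member with the clearest separation between groups. It had 34.0, 38.8 and 40.7 normalized CPM in control 1, 2 and 3 and 9.69, 11.7 and 12.3 in AP1AR-DT OE mice A, B and C. Every AP1AR-DT OE mouse lay well below every control mouse, and within a group the highest mouse was at most 1.26 times the lowest. The underlying counts were 1385, 1930 and 2034 in control mice and 514, 631 and 643 in AP1AR-DT OE mice. The means were 37.8 ± 3.43 (SD, n = 3) and 11.2 ± 1.35 (SD, n = 3), or 3.37-fold lower in AP1AR-DT OE mice. The Log2FC was −1.75 (SE 0.136). The adjusted P that led to its choice was 0.0209 in edgeR's test, with Rpl27 the last gene inside the threshold of 0.05 at 0.0377 and Myt1l the first outside at 0.0525. Among 14201 genes with a mean log2 CPM above 2, 55 had a lower Log2FC. Without control 2 the Log2FC of Wasf2 was −1.73, and without control 3 it was −1.69. Its adjusted P in edgeR's test was above 0.05 on leaving out control 2 (0.119), mouse A (0.0579), mouse B (0.131) or mouse C (0.0663). The threshold was still passed without control 1 or control 3. In bulk tissue, fewer cells that express a gene and less of its RNA per cell cannot be told apart.

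Wasf2 occupies bases 133130505 to 133199756 of chromosome 4 on GRCm38, plus strand. No 100-base stretch of its longest transcript was found in the transcripts of another gene, its paralogs included. On the same strand it contains Mir7017, listed with 1 to 5 counts per mouse and not tested, and on the opposite strand Gm24636, not analysed here. The nearest protein-coding gene before it, Ahdc1, is 52395 bases away and did not follow the groups, with 29.0 normalized CPM in control 1 and 28.9 in AP1AR-DT OE mouse C against 92.8 to 122 in the other mice. The nearest after it, Gpr3, a receptor that raises cyclic AMP, is 9584 bases away. Gpr3 had 5.41, 4.02 and 4.40 normalized CPM in control mice and 5.47, 8.38 and 7.18 in AP1AR-DT OE mice. Mouse A was just above control 1, the highest control mouse, and the Log2FC of Gpr3 was 0.61 (SE 0.218) with an adjusted P of 0.297. By the thresholds of the study Gpr3 was called higher, as were 5.1% of all genes. Its unadjusted P was above 0.05 with correction for GC content and on leaving out control 2, control 3, mouse B or mouse C.

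The other WAVE genes did not move with Wasf2 to this extent. Wasf1 encodes WAVE1, enriched in the brain and known for its role in dendritic spines, and had 204, 135 and 183 normalized CPM in control mice and 221, 221 and 182 in AP1AR-DT OE mice. The groups overlapped, with control 2 lowest of all mice and AP1AR-DT OE mouse C at the level of control 3. Its Log2FC was 0.26 (SE 0.165), and the adjusted P was 0.475. The Log2FC was 0.11 without control 2, 0.39 without control 1 and 0.31 without control 3. Wasf3 encodes WAVE3, also abundant in brain, and had 203, 199 and 201 normalized CPM in control mice and 180, 159 and 174 in AP1AR-DT OE mice. The groups did not overlap and the control mice differed from each other by at most 1.02-fold. The Log2FC of Wasf3 was −0.23 (SE 0.0827), with an unadjusted P under 0.05, an adjusted P of 0.296 and a size within the |Log2FC| threshold of 0.32. Its unadjusted P was above 0.05 on leaving out any 1 mouse other than mouse A. Wasf1 lies on chromosome 10 (40883475 to 40938570) and Wasf3 on chromosome 5 (146384985 to 146473615), both on the plus strand.

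**Figure D1:**
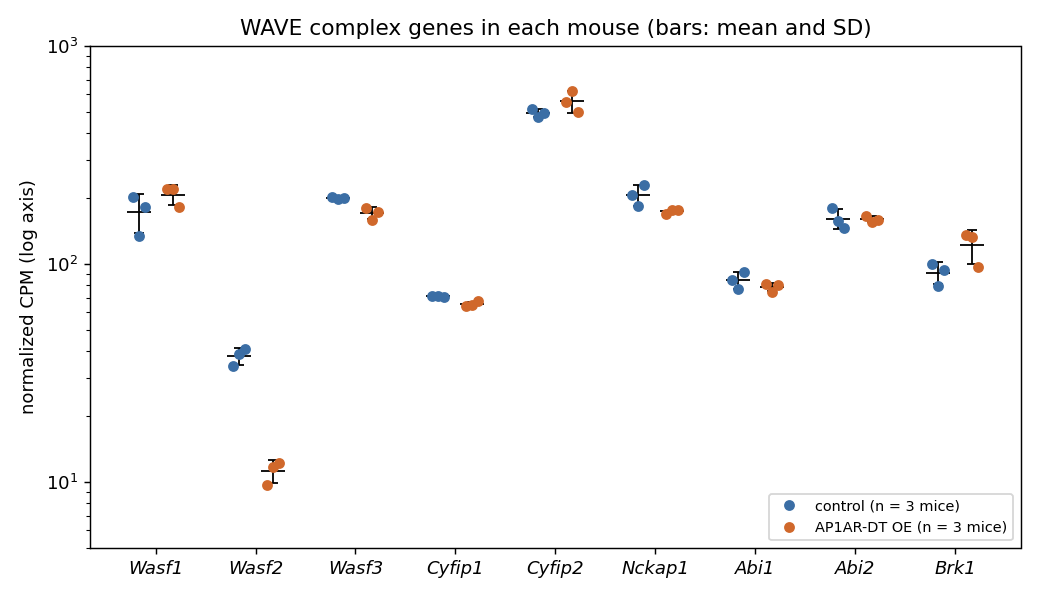
Normalized CPM of the 9 genes in each mouse on a log axis, with control mice in blue, AP1AR-DT OE mice in orange and bars for the mean and SD of 3 mice. Wasf2 is the only gene whose groups lie far apart, at 34.0 to 40.7 in control mice and 9.69 to 12.3 in AP1AR-DT OE mice.

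To set paralogs side by side, normalized CPM were divided by the summed exon length of each gene. On this scale Wasf2 made up 4.69%, 6.75% and 5.94% of the summed level of the WAVE genes in control mice and 1.36%, 1.70% and 1.97% in AP1AR-DT OE mice. It was the minor WAVE gene in every mouse. Summed per kb of exon, the WAVE genes stood at 106 ± 12.5 (SD, n = 3) for control mice and 108 ± 7.45 (SD, n = 3) for AP1AR-DT OE mice, a difference of 1.79% that was smaller than the spread between mice. Wasf1 made up 64.6%, 55.2% and 62.4% of the sum of Wasf1 and Wasf3 in control mice and 69.1%, 71.7% and 65.6% in AP1AR-DT OE mice. Every AP1AR-DT OE mouse was above every control mouse, by 8.03 percentage points between the means. An exact two-sided permutation test gave p = 0.1 (0.15 after Benjamini-Hochberg adjustment over the 3 shares tested), where 0.1 is the smallest p that 3 mice against 3 can give. Without control 2, the lowest mouse, the difference was 5.29 points.

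**Figure D2:**
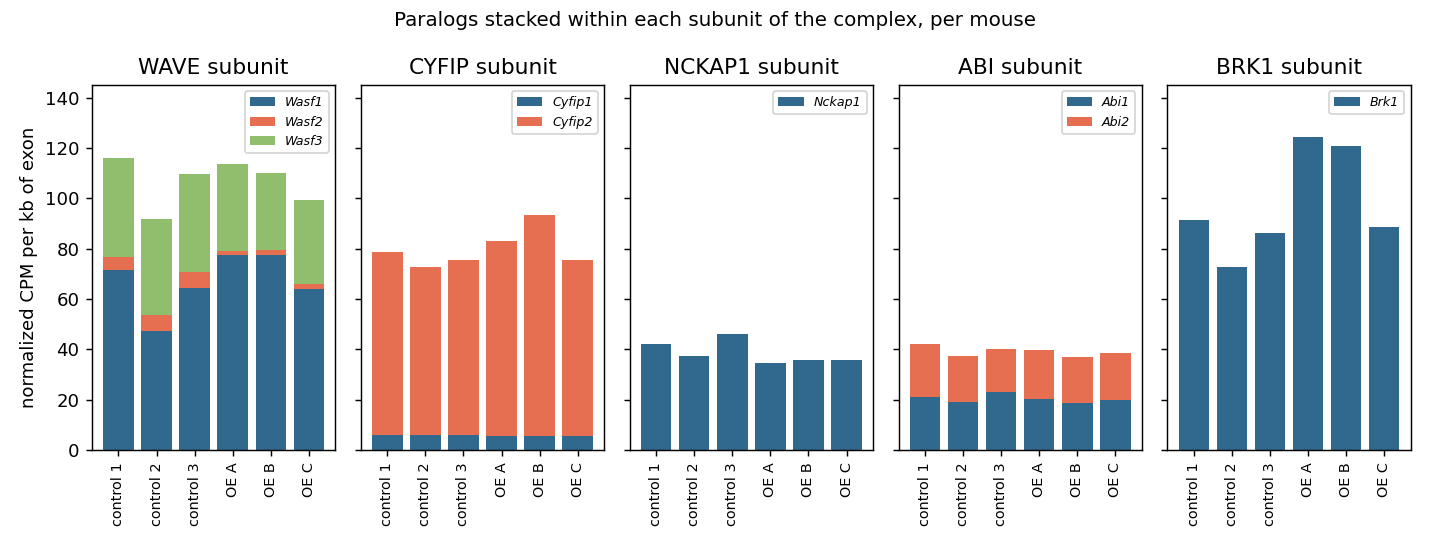
Normalized CPM per kb of exon in each mouse, with the paralogs of each subunit stacked. Wasf2 is the thin middle band of the WAVE bars, and it narrows in AP1AR-DT OE mice while the height of the bars overlaps between groups.

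Brk1 encodes the smallest subunit, a short helical protein also called HSPC300 that packs against WAVE and ABI. It had 99.9, 79.3 and 94.3 normalized CPM in control mice and 136, 132 and 97.0 in AP1AR-DT OE mice. Mice A and B were above all control mice, whereas mouse C lay between control 3 and control 1, so the groups overlapped. The means were 91.2 ± 10.6 (SD, n = 3) and 122 ± 21.6 (SD, n = 3), or 33.6% higher in AP1AR-DT OE mice. Brk1 rose by the thresholds of the study, with a Log2FC of 0.42 (SE 0.156), and had an adjusted P of 0.305. The unadjusted P was above 0.05 on leaving out control 2, mouse A or mouse B, at a Log2FC of 0.34, 0.33 and 0.36. Brk1 lies on the plus strand of chromosome 6 (113604772 to 113616951).

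Nckap1, on the minus strand of chromosome 2 (80500512 to 80581380), encodes the scaffold that pairs with CYFIP and brings the complex to the membrane. It had 208, 185 and 229 normalized CPM in control mice and 170, 176 and 176 in AP1AR-DT OE mice. The groups did not overlap, although control 2 was only slightly above the AP1AR-DT OE mice. The Log2FC was −0.25 (SE 0.0994), with an unadjusted P under 0.05 and an adjusted P of 0.314. Without control 3, the highest mouse, the Log2FC was −0.16, and the unadjusted P stayed under 0.05 on leaving out control 2 but no other mouse. Gm13689, a processed pseudogene on the same strand within Nckap1, was at 2.07 to 2.43 normalized CPM in control mice and 1.28 to 1.52 in AP1AR-DT OE mice.

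Cyfip1 and Cyfip2 encode the paralogs that bind Rac. Cyfip1 is also a partner of the fragile X protein, FMRP, in the control of translation. Cyfip1 had 71.7, 71.3 and 70.8 normalized CPM in control mice and 64.2, 64.7 and 67.5 in AP1AR-DT OE mice. This was the narrowest spread of any member, 1.05-fold at most within a group, and the groups did not overlap. The difference was small, a Log2FC of −0.12 (SE 0.0792, adjusted P = 0.477). Cyfip2 had 515, 474 and 494 normalized CPM in control mice and 552, 624 and 496 in AP1AR-DT OE mice. Cyfip1 is on the plus strand of chromosome 7 (55841745 to 55932602) and Cyfip2 on the minus strand of chromosome 11 (46193850 to 46312859). Mouse C lay among the control mice in Cyfip2, and the Log2FC of 0.17 (SE 0.108, adjusted P = 0.468) did not pass edgeR's test. Per kb of exon, Cyfip1 was 7.64%, 8.22% and 7.85% of the sum of both in control mice and 6.47%, 5.80% and 7.49% in AP1AR-DT OE mice. All AP1AR-DT OE mice were below all control mice, by 1.31 percentage points between the means (exact permutation test, p = 0.1, the smallest possible, and 0.15 after adjustment). The size of this share depended on the length used. With the longest transcript it was 12.6%, 13.5% and 12.9% in control mice and 10.7%, 9.67% and 12.3% in AP1AR-DT OE mice. Of the 6341 stretches of 100 bases in Cyfip1's longest transcript, 1266 were also found in other genes' transcripts, among them Nipa2 on the opposite strand, and the sources used here do not state whether counting used strand. Nipa2 was at 23.7 to 25.8 normalized CPM in control mice and 22.6 to 24.2 in AP1AR-DT OE mice.

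Abi1 and Abi2 encode the adaptors that hold WAVE and NCKAP1 together and recruit Abl kinases. Abi1 had 84.1, 76.5 and 92.2 normalized CPM in control mice and 81.2, 74.5 and 80.0 in AP1AR-DT OE mice, and Abi2 had 180, 158 and 146 against 166, 156 and 160. The groups overlapped for both genes. Abi1 is on the minus strand of chromosome 2 (22940073 to 23040241) and Abi2 on the plus strand of chromosome 1 (60409619 to 60481158). The Log2FC was −0.10 for Abi1 (SE 0.0997, adjusted P = 0.647) and −0.0069 for Abi2 (SE 0.0996, adjusted P = 0.979). With correction for GC content the sign of both turned, to 0.15 and 0.20. Abi1 made up 52.6% ± 4.08 (SD, n = 3) of their sum per kb of exon for control mice and 50.9% ± 0.606 (SD, n = 3) for AP1AR-DT OE mice (exact permutation test, p = 0.9, also after adjustment). With the longest transcript as length, the means were 47.0% for control mice and 45.3% for AP1AR-DT OE mice.

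Over all 9 members, 6 had a Log2FC below 0 and 3 above. The median was −0.10, or −0.054 without Wasf2, where the median of all genes tested was −0.014. By the thresholds of the study 2 members were called, beside 12.2% of all genes, namely Wasf2 lower (7.15% of all genes) and Brk1 higher (5.1% of all genes). No member other than Wasf2 had an adjusted P under 0.05. Unadjusted P was under 0.05 in 4 members, namely Wasf2, Wasf3, Nckap1 and Brk1, beside 15.1% of all genes. The groups did not overlap in Wasf2, Wasf3, Cyfip1 and Nckap1, all of them lower in AP1AR-DT OE mice, beside 22.4% of all genes in either direction and 12% in this direction. The choice of the complex rested on this comparison, so nothing was read from these counts against those shares.

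**Figure D3:**
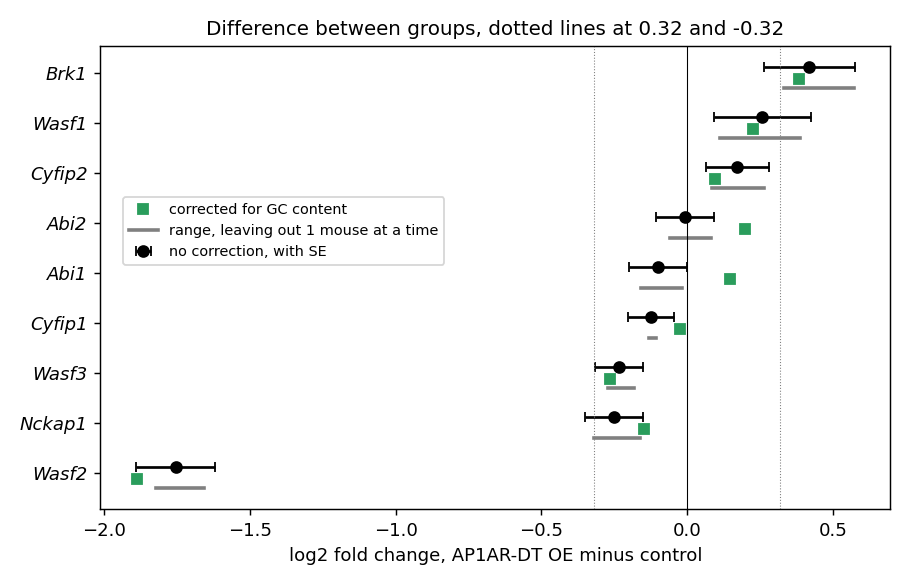
Log2FC of each member with its standard error in black, the value after correction for GC content as green squares, and the range on leaving out each mouse in turn as grey bars. Wasf2 stays between −1.89 and −1.66, whereas Abi1 and Abi2 turn to the other side of 0 after the correction.

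The subunits were not present at a common level per kb of exon. In control mice Brk1 was highest at 83.2 ± 9.69 normalized CPM per kb (SD, n = 3), followed by Cyfip2 at 69.6 ± 2.91 and Wasf1 at 61.0 ± 12.4. Nckap1 at 41.8 ± 4.46 and Wasf3 at 38.7 ± 0.426 came next, then Abi1 at 20.9 ± 1.96 and Abi2 at 18.9 ± 2.01. Wasf2 at 6.05 ± 0.548 and Cyfip1 at 5.97 ± 0.0349 were lowest. Neighbours in this order whose mice overlapped were Brk1 with Cyfip2, Cyfip2 with Wasf1, Nckap1 with Wasf3, Abi1 with Abi2, and Wasf2 with Cyfip1. In AP1AR-DT OE mice Wasf2 was at 1.79 ± 0.216 (SD, n = 3), below Cyfip1 at 5.48 ± 0.151 in every mouse. Dividing by the longest transcript alone put Abi2 above Abi1 and Cyfip1 above Wasf2 in control mice. Summed over paralogs, the CYFIP genes stood at 75.6 per kb in control mice and 84.0 in AP1AR-DT OE mice, and the ABI genes at 39.8 and 38.3.

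The order of the mice for Brk1, Wasf1 and Cyfip2 resembled that of the excitatory neuron markers. Control 2 was the lowest of all mice in the summed level of these markers, at 1098 normalized CPM, and in Brk1, Wasf1 and Cyfip2. Mice A and B, with 2329 and 2827, were the highest in the markers and in each of these 3 genes. The summed level was mostly that of Camk2a, a kinase of excitatory synapses. None of the 6 excitatory markers was called between groups, and none was at 0 in every mouse. Of 6 markers of all neurons, 2 were called higher and 1 lower, beside 5.1% and 7.15% of all genes. Rbfox3, a neuronal splicing factor gene, and Eno2, a neuronal enolase gene, were higher, both lowest in control 2 and highest in mice A and B. Map2, of the dendritic cytoskeleton, was lower, with a Log2FC of −0.44. Snap25, Syt1 and Tubb3 were not called, and Snap25 was highest in control 3, with a Log2FC of −0.17. Wasf2 did not follow the summed excitatory markers, with control 2 among the high mice and mouse B among the low. The part of cell composition in the values of Brk1, Wasf1, Cyfip2 and Wasf2 was not tested.

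**Figure D4:**
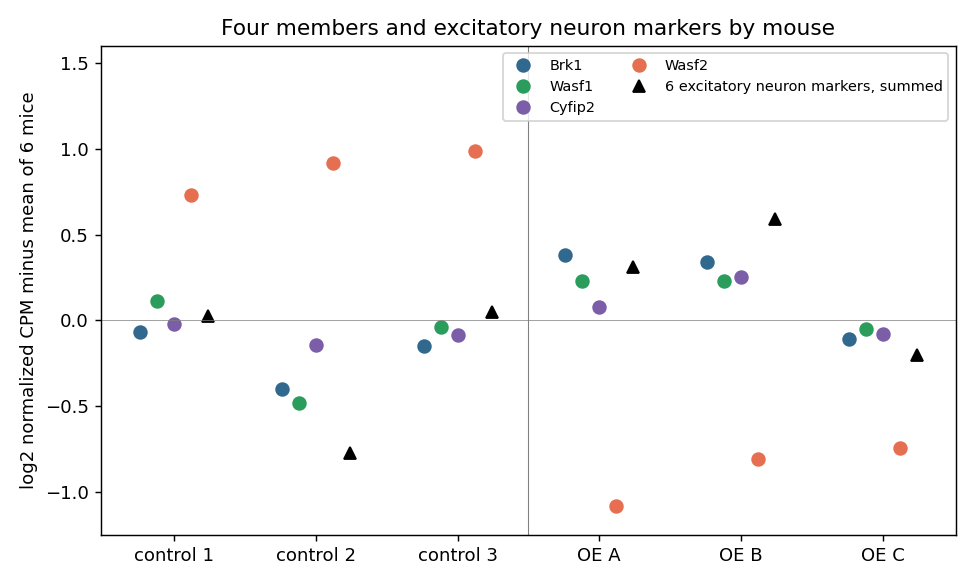
Log2 normalized CPM of Brk1, Wasf1, Cyfip2 and Wasf2 in each mouse, relative to each gene's mean over 6 mice, with the summed excitatory neuron markers as triangles. Brk1, Wasf1, Cyfip2 and the markers are lowest in control 2 and highest in mice A and B, while Wasf2 separates the groups.

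Genes that act with the complex were taken from a list of 50, all of which were tested. Of these, 8 rose and 1 fell by the thresholds of the study (18% called, beside 12.2% of all genes). Of all genes, 5.1% were called higher and 7.15% lower. The median Log2FC was 0.10. In edgeR's test 13 had an unadjusted P under 0.05, beside 15.1% of all genes, and none had an adjusted P under 0.05. The list was chosen with earlier results of these data known, so nothing was read from these counts, or from those of its groups below, against those shares. With DESeq2 as the alternative tool, 2 of the 50 had an adjusted P under 0.05, Abi3 (adjusted P = 0.0274) and Arf1 (adjusted P = 0.0387), where the highest adjusted P over the alternatives was 0.661 for both. None of the 10 genes of the Arp2/3 complex, the target of WAVE, was called. Their Log2FC lay between −0.25 for Arpc2 and 0.27 for Actr3b, and the smallest P was that of Arpc5l, with a Log2FC of 0.25 and an adjusted P of 0.319.

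Both subunits that replace their paralogs in blood-derived cells rose. Abi3 had 15.4, 12.4 and 17.2 normalized CPM in control mice and 23.6, 35.2 and 21.4 in AP1AR-DT OE mice, with no overlap and a Log2FC of 0.83 (SE 0.221, adjusted P = 0.295). It was called under every one of the 14 alternatives run. Nckap1l had 5.33, 5.04 and 6.27 against 10.2, 7.74 and 6.12, with mouse C among the control mice and a Log2FC of 0.53 (SE 0.222, adjusted P = 0.325). The call of Nckap1l was lost with limma-voom, and on leaving out control 1, control 2, mouse A or mouse B. Of 8 markers of microglia, the resident macrophages of the brain, C1qa, C1qb and Tmem119 were called higher, beside 5.1% of all genes, and none lower. P2ry12, a receptor of resting microglia, was not called and had a Log2FC of −0.25, with every AP1AR-DT OE mouse below every control mouse, and Cx3cr1 had −0.0011. Their summed level was 324 to 391 normalized CPM in control mice and 339 to 477 in AP1AR-DT OE mice, highest in mouse A, which was also highest in Nckap1l, while Abi3 was highest in mouse B. No microglial marker was at 0 in every mouse. The part of microglia in the values of Abi3 and Nckap1l was not tested.

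Among 14 Rac-type GTPases and their activators, 4 rose and 1 fell by the thresholds of the study (35.7% called, beside 12.2% of all genes). Of all genes, 5.1% were called higher and 7.15% lower. The list was chosen with earlier results of these data known, so nothing was read from this count. Rac1, the main switch of the complex, had 390, 367 and 377 normalized CPM in control mice and 355, 387 and 362 in AP1AR-DT OE mice, a Log2FC of −0.039 (SE 0.0821, adjusted P = 0.847). Arf1, a GTPase that helps Rac to activate the complex at membranes, rose from 328, 303 and 312 to 403, 430 and 373, with no overlap and a Log2FC of 0.35 (SE 0.0907, adjusted P = 0.295). Baiap2, which encodes the adaptor IRSp53 that links Rac to WAVE, had 163, 72.1 and 88.4 in control mice and 242, 200 and 140 in AP1AR-DT OE mice. Its groups overlapped, with control 1 above mouse C, at a Log2FC of 0.84 (SE 0.332, adjusted P = 0.313). Tiam2, a Rac exchange factor, had 28.7, 12.3 and 17.8 in control mice and 36.8, 37.5 and 28.4 in AP1AR-DT OE mice. Its groups overlapped, with control 1 just above mouse C, at a Log2FC of 0.81 (SE 0.298, adjusted P = 0.303). Trio, another exchange factor, had 155, 148 and 147 against 157, 182 and 223, highest in mouse C. Its Log2FC was 0.32 (SE 0.133, adjusted P = 0.323). Dock1, an exchange factor that works with Elmo proteins, fell by 0.32 on the log2 scale (adjusted P = 0.296), with a size just past the threshold. With all 6 mice, its call was lost under 7 of the 8 alternatives, that of Trio with limma-voom, library totals, the filter of 10 counts and correction for GC content, and that of Arf1 with correction for GC content or length. On leaving out 1 mouse at a time, the call of Arf1 was lost without mouse B, that of Trio without any mouse other than A, and that of Dock1 without control 1, control 3, mouse A or mouse C.

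The levels of Baiap2 and Tiam2 were lowest in control 2, which was also lowest in the summed level of 6 striatal markers. That level was 1203, 303 and 425 normalized CPM in control mice and 2150, 749 and 840 in AP1AR-DT OE mice. None of the striatal markers was called, none was at 0 in every mouse, and their part in these values was not tested. Without control 2 the Log2FC was 0.63 for Baiap2 and 0.57 for Tiam2, and both calls were lost, as they were without control 3, mouse A or mouse B.

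Of 12 other WASP-family factors and partners, Washc1, a subunit of the WASH complex of endosomes, rose, from 27.8, 26.1 and 23.9 normalized CPM to 32.1, 34.0 and 33.7 with no overlap (Log2FC 0.36, SE 0.101, adjusted P = 0.295). The call of Washc1 was lost without control 3. The remaining 11 were not called, among them Wasl, which encodes N-WASP, with a Log2FC of −0.18 (SE 0.126). Of 12 kinases, partners and modulators, Coro1b, a coronin that promotes the turnover of actin branches, rose, with a Log2FC of 0.33 (SE 0.134, adjusted P = 0.318), and its call was lost with correction for GC content or length and on leaving out any 1 of control 1, control 2, mouse A and mouse B. Gmfb, which encodes a factor that removes actin branches, had the smallest P in this group at a Log2FC of −0.26 (adjusted P = 0.295), within the threshold of 0.32. With correction for GC content 3 of the 9 called genes were still called, namely Abi3, Nckap1l and Tiam2.

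**Figure D5:**
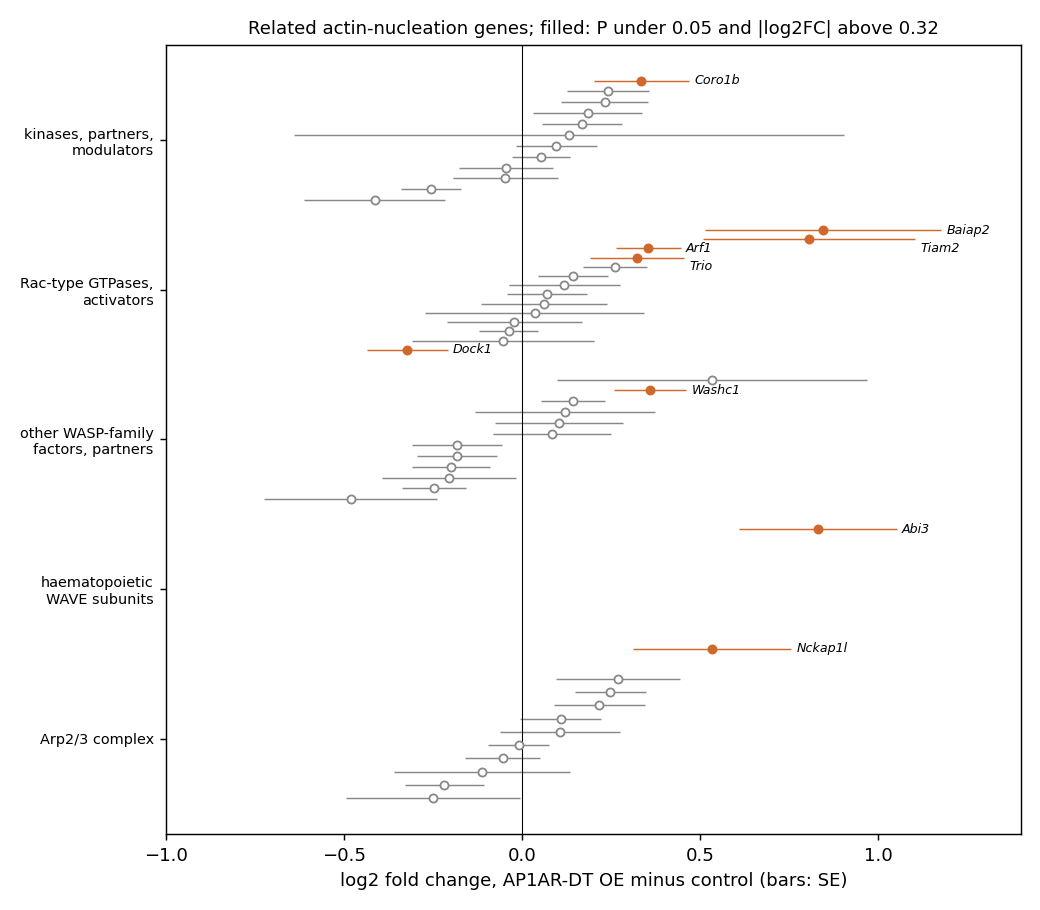
Log2FC with standard error for the 50 related genes, in groups by role, with filled orange points for the 9 genes that passed P under 0.05 and |Log2FC| above 0.32. No gene of the Arp2/3 complex is filled, and both haematopoietic subunits are.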

How the data were processed

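RNA-seq counts of brain tissue from 3 control and 3 AP1AR-DT OE mice were used. The authors deposited whole-number counts per gene without normalization. According to the study's methods, reads were checked with FastQC, mapped to GRCm38 with Bowtie2, an aligner that does not split reads at introns, and turned into counts from StringTie's coverage of GENCODE genes. The submitters' processing notes instead list TopHat2 2.0.4, SAMtools, HTSeq, Cuffdiff, edgeR 2.6.12 and the build mm9, so the tools behind the counts are uncertain, and use of strand is not given in the sources used here. Columns of the authors' DESeq2 comparison and mean normalized count in the same table were not used.

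Control columns match the labels by number. AP1AR-DT OE columns are numbered 1 to 3 and the mice 3 to 5, so these mice are called A, B and C in column order. Each title names a mouse, but litters and dates are not given. P-values of edgeR's test set the difference between groups against the spread between these samples. Of the 52390 identifiers, 52133 were found in GENCODE vM21 on GRCm38, which gave coordinates, GC content and lengths. The table's own coordinates differed and were not used.

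Counts were tested in R 4.3.3 with edgeR 4.0.16 (filterByExpr, TMM factors, quasi-likelihood F-test, two-sided, no covariate) over all genes, with Benjamini-Hochberg adjustment. Paralog shares were compared with exact permutation tests. Alternatives were DESeq2 1.42.0, limma-voom (limma 3.58.1), DESeq2 size factors, library totals, no filter, at least 10 counts in every mouse, smooth corrections for GC content and transcript length (natural splines, 5 degrees of freedom), other gene lengths, and leaving out each mouse. The main edgeR fit, DESeq2, limma-voom, DESeq2 size factors and library totals were also run on simulated counts with planted changes. Those counts held no differences in tissue between mice, and nothing was read from them here. The common biological coefficient of variation was 0.313. Other software was Python 3.11.15, matplotlib 3.10.9, scipy 1.17.1 and pandas 2.3.3.

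The members and lists were chosen with earlier results of these data known. Genes named are the 9 members, the related genes that were called or had the smallest P in their group, the genes overlapping and next to Wasf2, the 5 genes closest to Wasf2 over the mice, and markers of cell types. Rac1, Wasl, Arpc2, Actr3b, Eif4e and the genes overlapping other members were named after their values were seen.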

Additional observations from a re-analysis of the deposited data

How the results depend on the processing

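No paired analysis was possible because the groups share only 1 replicate number (controls 1 to 3, AP1AR-DT OE mice 3 to 5) and the AP1AR-DT OE columns carry no mouse number. Each Log2FC was recomputed under 14 alternatives, 6 of which left out 1 mouse. The Log2FC of Wasf2 stayed between −1.89 and −1.66. Correction for GC content gave 1568 called genes in all (main value 2675) and 4 called related genes (main value 9), turned Abi1 to 0.15, Abi2 to 0.20 and Gmfb to 0.032, and took the unadjusted P of Nckap1 above 0.05. Abi2 was 0.0029 without a filter on low counts, 0.062 with correction for length, and between −0.060 and 0.080 on leaving out a mouse. Leaving out 1 mouse gave 1430 (without mouse B; 1620 without mouse A) to 3508 called genes in all, 4 to 10 called related genes (4 without control 2, mouse A or mouse B) and 1 to 2 called members, where Brk1 was lost without control 2, mouse A or mouse B. The Abi1 share differed by −3.04 to 0.69 points, reversed only without control 3. Without division by length the Wasf2 share differed by −6.34 points in place of −4.12. With the longest transcript as length, the ranks in control mice became 9 for Wasf2, 8 for Cyfip1, 7 for Abi1 and 6 for Abi2. Of 126 recomputed Log2FC of members, 102 kept their direction and their side of an unadjusted P of 0.05, 16 lost that threshold, 7 changed sign and 1, Cyfip2 without mouse C, passed it.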

Other observations

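The log2 of normalized CPM, after adding 0.1, was compared with that of Wasf2 over the 6 mice. Among 14200 genes above a mean log2 CPM of 2, Mrpl50, a mitochondrial ribosomal protein gene, followed Wasf2 most closely (Pearson's r 0.998). Next came Bend6 (0.997), Serinc1 (0.993), Ipmk, an inositol phosphate kinase gene (0.991), and Lpp (0.988). These correlations are a description over 6 libraries that fall into 2 groups. The levels of Mrpl50 were 43.5, 43.8 and 45.1 normalized CPM in control mice and 35.0, 36.5 and 36.6 in AP1AR-DT OE mice. Its Log2FC was −0.29, and the Log2FC of the other 4 genes lay between −0.39 and −0.28, against −1.75 for Wasf2.

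Ranges of 4-fold or more within a group were seen in 218 of 9422 genes above a mean log2 CPM of 4 (2.31%), and the median gene differed by 1.28-fold. The 9 members ranged from 1.05-fold for Cyfip1 to 1.51-fold for Wasf1. Ahdc1, the gene before Wasf2, was among the 218 with 4.23-fold. Eif4e, which encodes the cap-binding protein that Cyfip1 can hold in check, was another, and was singled out here after its values were seen. It had 7.31 normalized CPM in control 3 and 76.3 to 103 in the other mice. Mitochondrial genes took 7.20% to 9.86% of the counts in control mice and 5.75% to 6.80% in AP1AR-DT OE mice.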
